A study of Mus musculus with 9 samples.

Results

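The 8 matrix metalloproteinases (MMPs) and 2 tissue inhibitors of metalloproteinases (TIMPs) described here were measured in mouse colon. They are Mmp2, Mmp3, Mmp8, Mmp9, Mmp10, Mmp12, Mmp13, Mmp14, Timp1 and Timp3. They were picked by gene symbol, with earlier results of these data known, and make up 10 of the 27719 genes in the table. Total RNA was taken from the colon of 3 control, 3 DSS and 3 DSS + EA mice, one library per mouse, and full-length cDNA was amplified by PCR and read on a Nanopore sequencer. The control group drank distilled water, and the DSS group drank 2.5% dextran sodium sulfate, which injures the colon epithelium, for 7 days. The DSS + EA group drank the same and also received electroacupuncture (EA), a weak current passed through needles, at both ST36 points. EA was started after 5 days of modeling and given once a day for 5 days, for 30 minutes at 2 Hz and 0.2 mA. All mice were C57BL/6J. Those of the control and DSS groups were held for the same time without EA, so holding was shared by all 3 groups. No group with needles but without current is described, so needling and current cannot be told apart. All DSS + EA mice had received DSS, and no group received EA alone.

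MMPs are zinc-dependent enzymes, made as inactive proenzymes, that cut collagens, elastin, proteoglycans and other proteins outside the cell once their propeptide is removed. TIMPs are small secreted proteins that occupy the active site of an MMP and block it, so that the activity in a tissue depends on both families and on activation, which RNA levels do not show. In the inflamed gut, MMPs come from stromal cells, from macrophages and neutrophils and from the epithelium at the wound edge. In bulk tissue such as this, a change in the number of cells of one type cannot be told apart from a change in the RNA of each cell.

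Mmp13, Mmp12, Mmp3, Mmp10 and Mmp8, 5 of the genes, lie on chromosome 9, in a cluster of 10 Mmp genes that spans 427.1 kb (GRCm38, chr9:7272514-7699585). The others are single: Mmp2 on chromosome 8 (92827291 to 92853420), Mmp9 on chromosome 2 (164940780 to 164955850), Mmp14 on chromosome 14 (54431612 to 54445364), Timp1 on chromosome X (20870166 to 20874735) and Timp3 on chromosome 10 (86300372 to 86349506). RefSeq promoters (GRCm38.p6) were at hand for 8 of the 10 genes, and the 250 bases before each start were searched on both strands for TGANTCA, the letters of the AP-1 site (bound by Fos and Jun proteins), TATAAA, the TATA box, and AGGAAG, one form of the Ets site. The AP-1 letters were found in 4 of these 8 genes, against 6.75% of all 32851 promoters in the table, and the 4 are the cluster genes Mmp3, Mmp10, Mmp13 and Mmp12. TATAAA was found in Mmp3, Mmp10 and Mmp13, against 12.4% of all promoters, and AGGAAG in 7 of the 8 genes, against 29.5% of all promoters. A gene was counted if any of its promoters held the letters, whereas the shares of all promoters count each promoter singly. Over the whole family, 8 of the 10 genes of the cluster held the AP-1 letters, with Mmp8 and Mmp27 as the exceptions, and 0 of the 12 matched Mmp and Timp genes elsewhere did. The last 100 bases before the start are shown for the cluster genes followed here because these genes lie together and changed in the same direction, and all 5 lie on the plus strand. Capitals mark the AP-1 and TATAAA letters, and positions count back from -1, the base before the start. For Mmp12 the second of its RefSeq starts is shown, since the first held neither.
Mmp3 (chr9:7445722-7445821): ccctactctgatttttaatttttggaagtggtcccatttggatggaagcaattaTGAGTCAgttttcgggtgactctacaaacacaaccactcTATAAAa
Mmp10 (chr9:7502242-7502341): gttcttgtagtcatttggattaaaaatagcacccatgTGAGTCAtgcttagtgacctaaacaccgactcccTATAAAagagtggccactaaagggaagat
Mmp13 (chr9:7272414-7272513): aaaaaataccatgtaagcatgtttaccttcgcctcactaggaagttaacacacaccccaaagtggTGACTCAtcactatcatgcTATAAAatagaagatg
Mmp12 (chr9:7347274-7347373): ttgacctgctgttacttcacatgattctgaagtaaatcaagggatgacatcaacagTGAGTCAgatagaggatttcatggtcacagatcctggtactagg
Mmp8 (chr9:7558329-7558428): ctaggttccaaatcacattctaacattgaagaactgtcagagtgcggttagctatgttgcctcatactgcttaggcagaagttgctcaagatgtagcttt
The AP-1 letters begin at -46 in Mmp3, -63 in Mmp10, -35 in Mmp13 and -44 in Mmp12, so that they lie within a short stretch before the start in all 4. They are TGAGTCA in Mmp3, Mmp10 and Mmp12 and TGACTCA in Mmp13. These are matches of letters and no binding was measured.

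Between 2627695 and 4235576 reads were counted per mouse, and 3 counts corresponded to 0.708 to 1.14 CPM, a count scaled by sequencing depth (and, for the levels of genes below, by edgeR's TMM factors). PCR copies could not be told apart from independent molecules, so the exact intervals of summed counts and the floors given below cover counting error only. The intervals of log2 fold changes come from the edgeR fit and also include the spread between mice. Colon epithelium markers were present in all mice, with a summed level over 10 markers of 10950 to 27750 CPM in control mice, 1379 to 6972 CPM in DSS mice and 7681 to 14470 CPM in DSS + EA mice. Some libraries stood apart before any gene of the family was considered. DSS mouse 1 had 4556 CPM over 12 neutrophil markers, against 25450 and 27740 CPM in DSS mice 2 and 3. DSS + EA mice 2 and 3 had 27950 and 12850 CPM over 10 pancreatic acinar markers, against 521 CPM in DSS + EA mouse 1, 373 to 963 CPM in the control group and 42.8 to 101 CPM in the DSS group, and the part of this in the results was not tested. Without DSS mouse 1 the number of the 10 MMP and TIMP genes called in each comparison given below was the same. The log2 fold changes of DSS + EA against DSS were then -3.93 for Mmp8, -4.80 for Mmp9 and -4.03 for Mmp3. Values without DSS + EA mice 2 and 3 follow the accounts of the single genes.

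All 10 genes rose in the DSS group against the control group at an adjusted p under 0.05, where 21.5% of the 12566 genes tested rose. The 10 were picked with earlier results of these data known, so counts among them are descriptions and no test of the family. Of the 6 other Mmp and Timp genes tested, 4 rose and 1 fell with DSS, and 2 fell with EA. In all 10 genes every DSS mouse lay above every control mouse, as it did for 26.2% of the genes tested. All 10 fell in the DSS + EA group against the DSS group, where 18.3% of the genes tested fell, and in 9 of them every DSS + EA mouse lay below every DSS mouse (23.3% of the genes tested). Against the control group, 6 of the 10 were still higher in the DSS + EA group, where 3.00% of the genes tested were higher, and in 9 of the 10 every DSS + EA mouse lay above every control mouse (18.0% of the genes tested). These 6 were Mmp3, Mmp10, Mmp8, Mmp13, Mmp2 and Timp1, while Mmp9, Mmp12, Mmp14 and Timp3 did not pass the test. The median log2 fold change of the 10 genes was 5.88 with DSS, -2.75 for DSS + EA against DSS and 2.69 for DSS + EA against control, beside 0.02, -0.02 and 0.00 over all genes tested. The second comparison uses the same DSS mice as the first, so a high value in a DSS mouse enters both with opposite sign, and likewise for the other pairs of comparisons. All 10 genes passed the filter on low counts, but Mmp12 and Mmp9 passed it only through their high counts in the DSS mice. Outside that group Mmp12 had 0 to 7 reads and Mmp9 2 to 14 reads per mouse. Their calls against the DSS group are thus partly set by the filter. The same holds for genes named below that were low outside the DSS mice, such as Mmp19 and Osm. Each library stands for its own mouse. The p-values set a group difference against the spread between mice, which was estimated over all 9 libraries with information shared across genes. When the study's thresholds for a differentially expressed gene (log2 fold change beyond 2.5 and P under 0.01), which it set on DESeq2 results, were applied to the edgeR values, 9 genes rose with DSS, where 6.62% of the genes tested did, and 6 fell with EA, where 3.50% did.

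**Figure D1:**
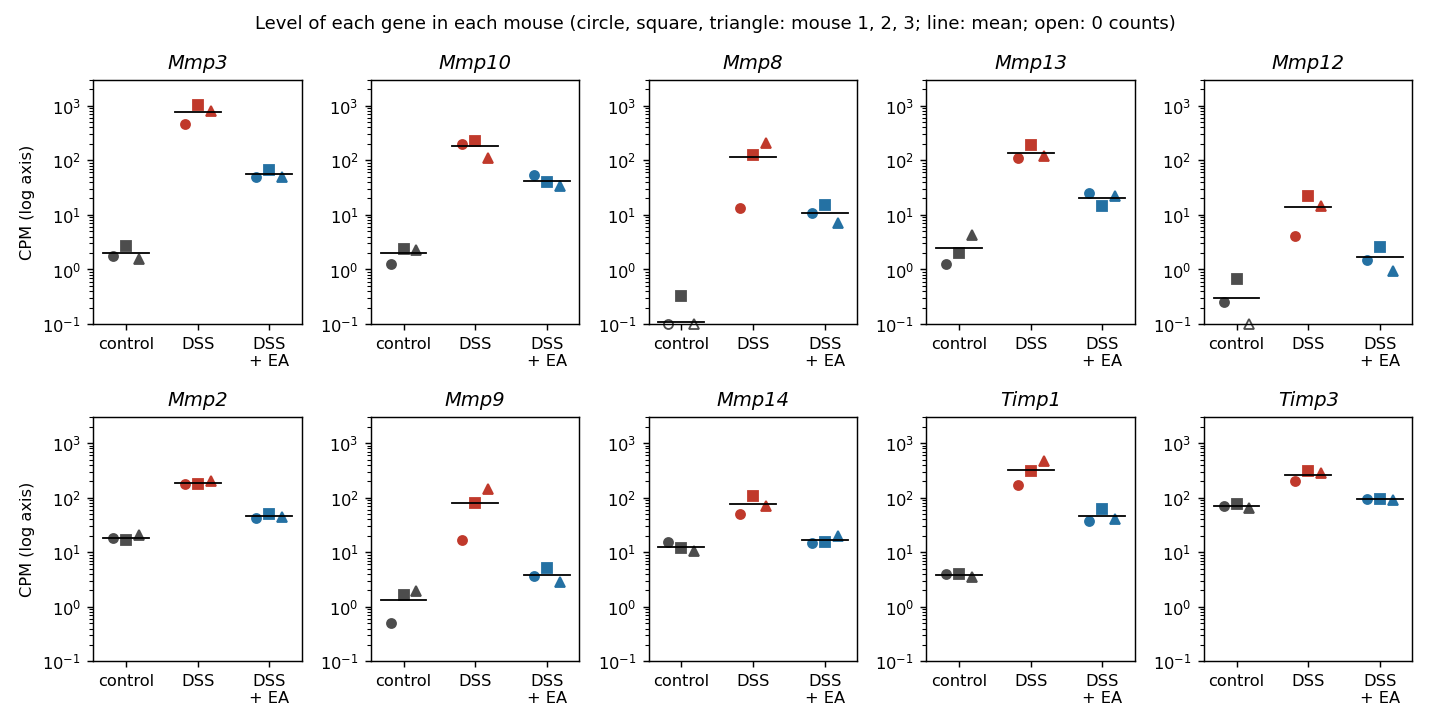
Level of each of the 10 genes in each mouse, in CPM on a log axis, with the group mean as a line and libraries without a read as open symbols on the lower edge. Every DSS mouse lies above every control mouse in all 10 panels, and Mmp8 is the one gene in which a DSS mouse (13.2 CPM) lies below a DSS + EA mouse (14.9 CPM).

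The stromelysins Mmp3 and Mmp10 cut proteoglycans, laminin and fibronectin and activate other proenzymes of the family. Mmp3 had 1.78, 2.66 and 1.53 CPM in the 3 control mice, 463, 1036 and 810.5 CPM in the DSS mice and 49.9, 65.7 and 50.1 CPM in the DSS + EA mice. The 3 groups did not overlap, and the lowest DSS mouse was far above the highest DSS + EA mouse. The log2 fold change of Mmp3 was 8.57 (SE 0.42, adjusted p = 5.27e-06 by edgeR's quasi-likelihood test with Benjamini-Hochberg adjustment, as for all adjusted p-values below) with DSS, a 379-fold rise. With EA the gene fell by 3.80 on the log2 scale (SE 0.32, adjusted p = 0.000161), and DSS + EA mice stayed 27.2-fold above the control group (log2 fold change 4.77, SE 0.38, adjusted p = 0.000748). Mmp10 had 1.27, 2.33 and 2.30 CPM in the control mice, 200.1, 229 and 112 CPM in the DSS mice and 53.6, 40.3 and 33.9 CPM in the DSS + EA mice. Here DSS mouse 3 was the lowest of its group, whereas DSS mouse 1 was the lowest for Mmp3. The rise of Mmp10 with DSS was 92.4-fold (log2 fold change 6.53, SE 0.40, adjusted p = 1.21e-05). Its fall with EA was 4.23-fold (log2 fold change -2.08, SE 0.30, adjusted p = 0.00121), and the DSS + EA group remained 21.9-fold above the control group (log2 fold change 4.45, SE 0.39, adjusted p = 0.00112).

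The collagenases Mmp8 and Mmp13 cut fibrillar collagen across its triple helix, Mmp8 being stored in neutrophil granules and Mmp13 being made by stromal cells. A single read of Mmp8 was counted in the whole control group, in mouse 2 (0.333 CPM), and mice 1 and 3 had none. The DSS mice had 13.2, 126 and 210 CPM of Mmp8 and the DSS + EA mice 10.7, 14.9 and 6.98 CPM. DSS mouse 1 was far below mice 2 and 3 and lay inside the range of the DSS + EA group. Summed over mice, 1295 counts in the DSS group stood against 1 in the control group, a ratio of 1167 scaled for library size (95% exact interval 209 to 46120), and 97 counts in the DSS + EA group gave a ratio of 99.2 (17.4 to 3959). The fitted fold change of Mmp8 against the control group depends on the prior count and is no bound. Its log2 value was 9.67 with DSS (SE 1.32, adjusted p = 0.000504), and 11.57 without control mouse 2, 9.03 without control mouse 1 and 8.94 without DSS mouse 3. For DSS + EA against control it was 6.24 (SE 1.48, adjusted p = 0.0499), at the edge of the threshold, and this call was lost without any one of the control mice, DSS mouse 2 or any one of the DSS + EA mice. In these fits the log2 fold change was 5.65 to 8.19, the highest value being that without control mouse 2. Between the DSS and DSS + EA groups Mmp8 fell by 3.43 on the log2 scale (SE 0.79, adjusted p = 0.00927), and without DSS mouse 3 the log2 value was -2.69. Mmp13 was more even within groups. It had 1.27, 2.00 and 4.22 CPM in the control mice, 108, 188 and 118 CPM in the DSS mice and 25.3, 14.6 and 21.9 CPM in the DSS + EA mice, without overlap. Mmp13 rose 57.2-fold with DSS (log2 fold change 5.84, SE 0.44, adjusted p = 3.06e-05). With EA it fell 6.68-fold (log2 fold change -2.74, SE 0.36, adjusted p = 0.000752) and stayed 8.55-fold above the control group (log2 fold change 3.10, SE 0.43, adjusted p = 0.00577).

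The gelatinases Mmp2 and Mmp9 cut denatured collagen and basement membrane type IV collagen, Mmp2 chiefly made by fibroblasts and Mmp9 by neutrophils and macrophages. Mmp2 had 18.3, 16.6 and 20.3 CPM in the control mice, 178, 177 and 198 CPM in the DSS mice and 42.3, 50.8 and 43.5 CPM in the DSS + EA mice. It was the most even gene of the 10 in the DSS group, where the highest mouse was 1.12-fold above the lowest. Mmp2 rose 9.99-fold with DSS (log2 fold change 3.32, SE 0.18, adjusted p = 6.96e-06), fell 4.04-fold with EA (log2 fold change -2.02, SE 0.17, adjusted p = 0.000166) and stayed 2.47-fold above the control group (log2 fold change 1.30, SE 0.17, adjusted p = 0.00461). Mmp9 had 0.508, 1.66 and 1.92 CPM in the control mice, 17.1, 78.4 and 144 CPM in the DSS mice and 3.65, 5.23 and 2.86 CPM in the DSS + EA mice. Its DSS mice spread 8.44-fold, with mouse 1 lowest as for Mmp8, and no group overlapped another. The rise of Mmp9 with DSS was 60.3-fold (log2 fold change 5.91, SE 0.82, adjusted p = 0.000525) and its fall with EA 20.4-fold (log2 fold change -4.35, SE 0.71, adjusted p = 0.00203). Both sizes leaned on DSS mouse 3, without which the log2 fold changes were 5.19 and -3.62. For DSS + EA against control the log2 fold change of Mmp9 was 1.56 (95% interval -0.48 to 3.61, adjusted p = 0.435), although all 3 DSS + EA mice were above all 3 control mice.

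Mmp12, the macrophage elastase, was the least counted gene of the 10. The control mice had 1, 2 and 0 reads, the DSS mice 13, 104 and 47 reads and the DSS + EA mice 5, 7 and 3 reads, or 0.254, 0.665 and 0 CPM, 4.18, 22.6 and 14.7 CPM, and 1.52, 2.62 and 0.952 CPM. Every DSS mouse was above every DSS + EA mouse, and every DSS + EA mouse above every control mouse. The 164 counts of the DSS group against 3 in the control group gave a ratio of 49.3 (95% exact interval 16.6 to 241), and the 15 counts of the DSS + EA group a ratio of 5.11 (1.45 to 27.6). The fitted log2 fold change was 5.32 with DSS (SE 0.85, adjusted p = 0.00109), or 6.18 without control mouse 2. With EA Mmp12 fell by 3.04 on the log2 scale (SE 0.66, adjusted p = 0.00718). DSS + EA against control gave a log2 fold change of 2.27 (95% interval -0.10 to 4.65, adjusted p = 0.315).

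Mmp14 is anchored in the cell membrane, cuts collagen at the cell surface and activates the Mmp2 proenzyme together with Timp2. It had 15.3, 11.97 and 10.7 CPM in the control mice, 49.5, 106 and 70.5 CPM in the DSS mice and 14.9, 15.3 and 19.98 CPM in the DSS + EA mice. The DSS mice were above all others, while DSS + EA mouse 1 lay inside the control range and mouse 2 at its upper end. Mmp14 rose 5.92-fold with DSS (log2 fold change 2.56, SE 0.31, adjusted p = 0.000254) and fell 4.50-fold with EA (log2 fold change -2.17, SE 0.30, adjusted p = 0.00097). For DSS + EA against control its log2 fold change was 0.40 (95% interval -0.28 to 1.08, adjusted p = 0.566).

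Timp1 is the inducible inhibitor of the family and binds most secreted MMPs, while Timp3 is held in the matrix and also blocks ADAM17 and other ADAM enzymes. Timp1 had 4.07, 3.99 and 3.45 CPM in the control mice, 173, 302 and 471 CPM in the DSS mice and 38.1, 62.0 and 40.9 CPM in the DSS + EA mice. The groups stood well apart, with the lowest DSS mouse above the highest DSS + EA mouse. Timp1 rose 81.1-fold with DSS (log2 fold change 6.34, SE 0.44, adjusted p = 1.82e-05), fell 6.72-fold with EA (log2 fold change -2.75, SE 0.35, adjusted p = 0.000699) and stayed 12.1-fold above the control group (log2 fold change 3.59, SE 0.40, adjusted p = 0.00261). Timp3 had 69.6, 76.8 and 65.2 CPM in the control mice, 202, 304 and 278 CPM in the DSS mice and 93.1, 96.0 and 89.8 CPM in the DSS + EA mice. It was the gene with the smallest rise of the 10 and the one with the highest control level per kb of transcript. Timp3 rose 3.70-fold with DSS (log2 fold change 1.89, SE 0.19, adjusted p = 0.000121) and fell 2.81-fold with EA (log2 fold change -1.49, SE 0.19, adjusted p = 0.000688). Its log2 fold change for DSS + EA against control was 0.40 (95% interval -0.02 to 0.82, adjusted p = 0.317), with all 3 DSS + EA mice above all 3 control mice. Opposite-strand genes overlap Mmp12 (Mmp1b), Timp1 (Syn1) and Timp3 (Syn3), and each had at most 6 counts in any library.

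**Figure D2:**
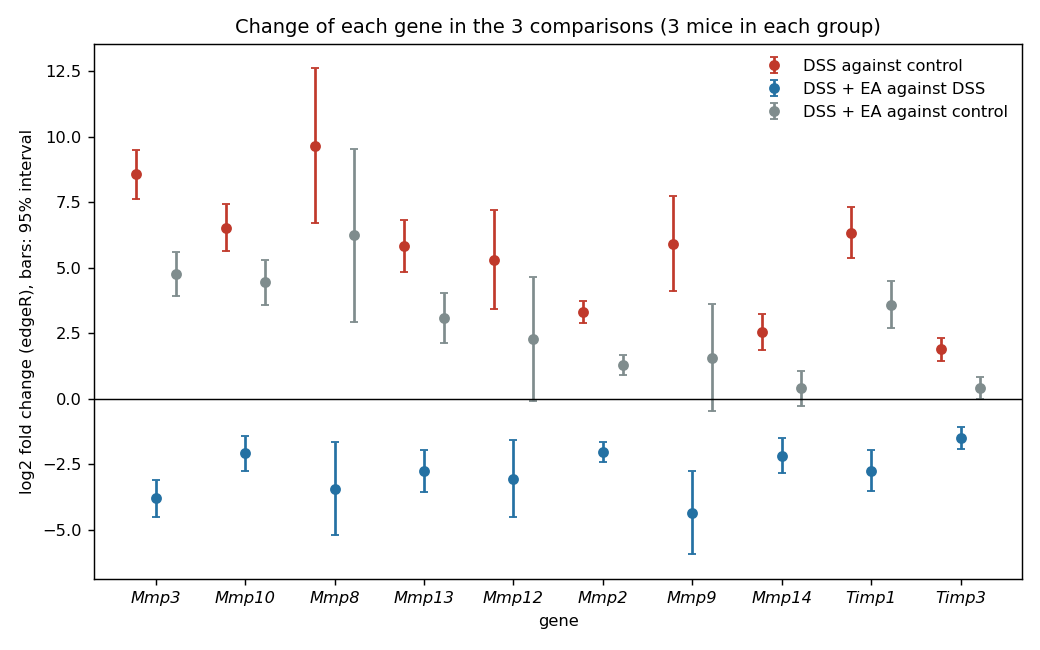
Log2 fold change of each gene in the 3 comparisons (points) with its 95% interval (bars), from the fit over 9 mice. The intervals of DSS against control lie above 0 and those of DSS + EA against DSS below 0 for all 10 genes, while those of DSS + EA against control reach below 0 for Mmp9, Mmp12, Mmp14 and Timp3.

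DSS + EA mice 2 and 3 carried the pancreatic markers described above, and the comparison with the DSS group was repeated without both, a check chosen after these values were seen. The remaining DSS + EA mouse is then assumed to vary like the other groups. All 10 log2 fold changes stayed negative. Calls remained for Mmp3 (-3.92), Mmp2 (-2.10), Mmp14 (-2.31) and Timp1 (-3.03), and were lost for the other 6 genes, whose log2 fold changes were -1.47 to -4.41. With a single DSS + EA mouse, 302 genes of the whole table passed the test as lower, against 2295 with all 3. Leaving out either library alone left all 10 genes called lower. Against the control group 4 genes in place of 6 were higher without both, with Mmp8 (log2 fold change 6.22) and Mmp2 (1.18) no longer called.

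Levels of different genes were compared per kb of the longest coding transcript. In the control group the order was led by Timp3 (14.9 CPM per kb), Mmp2 (5.98), Timp1 (4.34) and Mmp14 (3.91), and Mmp3 (1.11) and Mmp10 (1.14) were close to each other below them. In the DSS group Mmp3 (428 CPM per kb) and Timp1 (357) came first, followed by Mmp10 (105), Mmp2 (59.8), Timp3 (55.3), Mmp13 (51.6), Mmp8 (48.0), Mmp9 (25.1), Mmp14 (23.3) and Mmp12 (3.83). In the DSS + EA group the values per kb were 53.2 for Timp1, 30.7 for Mmp3, 24.8 for Mmp10, 19.7 for Timp3 and 14.8 for Mmp2. In full-length cDNA a read can stand for a whole transcript whatever its length, and without the division by length the order of these genes was Timp3 (93.0 CPM), Mmp3 (55.3), Timp1 (47.0), Mmp2 (45.5) and Mmp10 (42.6), so the place of Timp1 depends on the scale. Neighbours in these orders, such as Mmp2, Timp3, Mmp13 and Mmp8 in the DSS group, were not tested against each other.

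The make-up of the MMP pool changed between groups. The 8 MMPs together had 38.2 to 41.0 CPM in the control mice, 1033 to 1963 CPM in the DSS mice and 180.2 to 209 CPM in the DSS + EA mice. Of these reads, Mmp2 and Mmp14 made up 46.8% ± 3.07 and 32.3% ± 6.71 (SD, n = 3) in the control group, but 12.7% ± 4.17 and 4.80% ± 0.593 in the DSS group. Mmp3 took 5.10% ± 1.67 in the control group and 48.6% ± 3.99 in the DSS group. In the DSS + EA group the shares of Mmp3 (28.0% ± 3.32) and of Mmp2 (23.1% ± 1.85) and Mmp14 (8.60% ± 2.16) lay between those of the other groups. The share of Mmp10 was 4.99% in the control, 12.6% in the DSS and 21.6% in the DSS + EA group, and was 6.68% to 19.4% over the DSS mice. Among the 4 Timp genes, Timp3 held 74.4% ± 7.30 of the reads in control mice, 40.6% ± 5.83 in DSS mice and 55.7% ± 5.45 in DSS + EA mice. Timp1 held 4.03% ± 0.194, 46.2% ± 10.1 and 27.6% ± 4.04 in the same order. The shares are descriptions and were not tested.

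**Figure D3:**
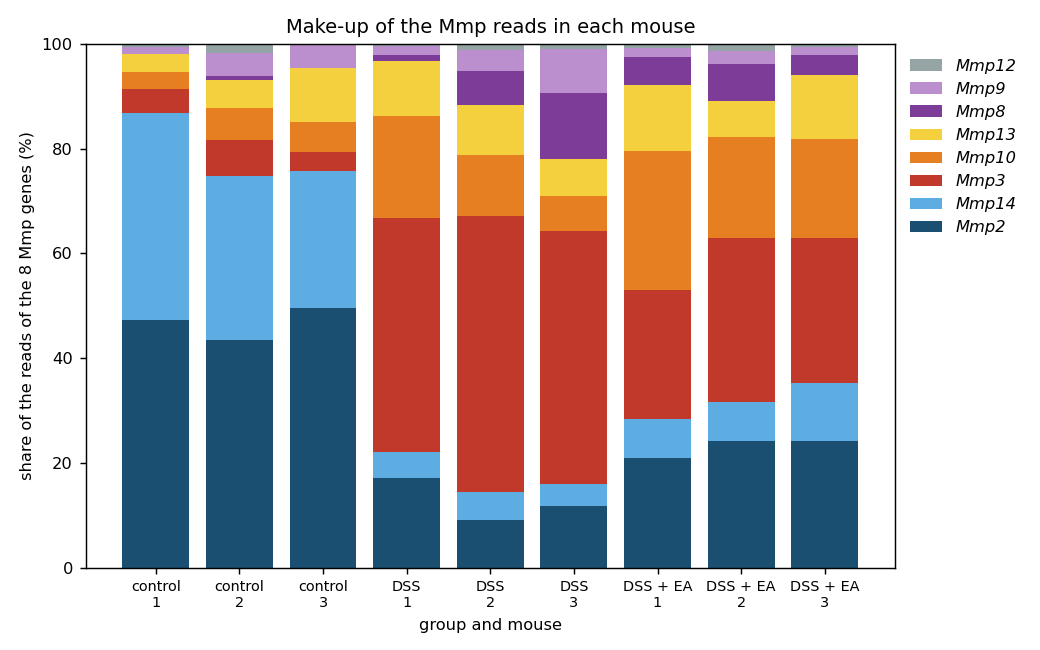
Share of each of the 8 MMP genes in their summed reads (vertical axis, percent) in each of the 9 mice. Mmp2 and Mmp14 (blues) fill most of the bar in the control mice and Mmp3 (red) is the largest part in each DSS mouse.

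The balance between each MMP and Timp1 was taken within each library, as the log2 ratio of their counts with 0.5 added to each, and compared between the DSS and DSS + EA groups with an exact two-sided permutation test. With 3 mice against 3 the smallest p this test can give is 0.1. The ratio of Mmp3 to Timp1 was 1.42, 1.78 and 0.78 in the DSS mice and 0.39, 0.08 and 0.29 in the DSS + EA mice. The groups did not overlap, and the mean difference was -1.07 (exact p = 0.1, the smallest possible, and 0.5333 after Benjamini-Hochberg adjustment over the 8 MMPs). For Mmp9 the difference was -1.21 (exact p = 0.2), for Mmp2 0.65 (exact p = 0.2), for Mmp10 0.62 (exact p = 0.5) and for Mmp14 0.56 (exact p = 0.4), all with overlapping groups. The ratios of Mmp8, Mmp13 and Mmp12 to Timp1 differed by -0.09, -0.07 and -0.05 (exact p = 1.0, 0.9 and 1.0). The sign of the difference turned when one mouse was left out for Mmp10 (-0.04 to 1.10), Mmp8 (-0.92 to 0.35), Mmp13 (-0.51 to 0.38) and Mmp12 (-0.37 to 0.42). This test cannot pass 0.05 with 3 mice against 3, so no difference in balance was called.

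The table held 17 other Mmp and Timp genes, of which 6 passed the filter on low counts. Of these 6, 4 rose and 1 fell with DSS (21.5% and 19.5% of all genes tested did). With EA 2 fell (18.3%), and 1 stayed above control in DSS + EA mice (3.00%). Mmp7, matrilysin, an epithelial enzyme that activates defensins, had 1.53, 0.665 and 5.37 CPM in the control mice, 27.3, 10.2 and 8.11 CPM in the DSS mice and 14.3, 24.7 and 17.1 CPM in the DSS + EA mice. It rose with DSS (log2 fold change 2.64, SE 0.67, adjusted p = 0.0112). Between the DSS and DSS + EA groups, which overlapped, the log2 fold change was 0.30 (95% interval -0.93 to 1.54, adjusted p = 0.694). DSS + EA mice remained above the control group in Mmp7 (log2 fold change 2.94, SE 0.67, adjusted p = 0.0434). Mmp15, a membrane-type enzyme like Mmp14, fell with DSS from 51.6, 51.9 and 52.5 CPM to 21.2, 16.7 and 4.99 CPM (log2 fold change -1.85, SE 0.41, adjusted p = 0.00579). Its DSS + EA mice had 26.2, 35.1 and 23.2 CPM, above all DSS mice, with a log2 fold change of 0.97 (adjusted p = 0.0884). Outside the DSS group Mmp19 had 5 to 17 reads per mouse. It rose with DSS (log2 fold change 2.64, SE 0.39, adjusted p = 0.000733) and fell with EA (-1.52, SE 0.35, adjusted p = 0.00967). Timp2, the inhibitor that takes part in Mmp2 activation, likewise rose (2.05, SE 0.33, adjusted p = 0.0011) and fell (-1.62, SE 0.32, adjusted p = 0.00478). Mmp23 rose with DSS (log2 fold change 0.92, SE 0.32, adjusted p = 0.0421), with a log2 fold change of -0.11 (adjusted p = 0.81) for EA. Mmp17 had log2 fold changes of -0.71 and -1.04 (adjusted p = 0.236 and 0.157). Among the genes too low to test, Mmp25, a membrane-anchored enzyme of neutrophils, had 1, 37 and 19 reads in the DSS mice and 1 to 3 reads in each other mouse, and Mmp21 had no read in any mouse.

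Within the chromosome 9 cluster, 6 of the 10 Mmp genes were tested, and all 6 rose with DSS. Mmp13, Mmp12, Mmp3, Mmp10 and Mmp8 fell with EA, and Mmp7, at the far end of the cluster, did not pass that test. Mmp1b, Mmp1a, Mmp27 and Mmp20, which lie between them or next to them, had 1, 3, 18 and 1 reads over all 9 mice. Of the genes within 1 Mb on either side, 6 were tested and 4 of these rose with DSS (21.5% of all genes tested did). These were Dcun1d5 (log2 fold change 2.20, adjusted p = 0.0117), Tmem123 (1.18, adjusted p = 0.029), and the inhibitors of apoptosis Birc2 (1.38, adjusted p = 0.00105) and Birc3 (1.19, adjusted p = 0.00955). The other 2, Dync2h1 and Yap1, had log2 fold changes of 0.54 (adjusted p = 0.264) and 0.78 (adjusted p = 0.0527). The 5 cluster genes described above had log2 fold changes of 5.32 to 9.67, above every tested neighbour.

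**Figure D4:**
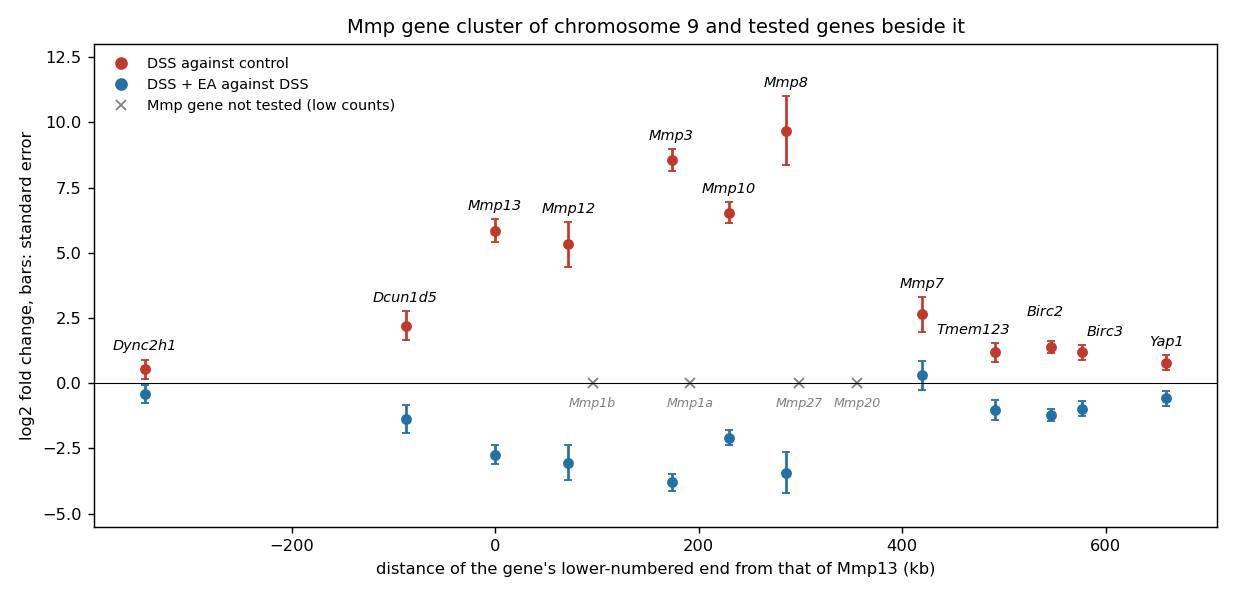
Log2 fold change (points, with the standard error as bars) of the tested genes of the chromosome 9 cluster and its flanks against their distance from Mmp13 in kb, for DSS against control (red) and DSS + EA against DSS (blue); crosses are Mmp genes with too few counts to test. Of the 6 tested Mmp genes, 5 lie above 5 with DSS and below -2 with EA, and the tested genes outside the cluster lie between 0.54 and 2.20 with DSS.

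Proteins that activate, dock or otherwise inhibit MMPs were taken as a list of 17 genes, of which 14 were tested. With DSS 11 rose and 2 fell (21.5% and 19.5% of all genes tested did). With EA 2 rose and 10 fell (17.2% and 18.3%), and 4 stayed above control in DSS + EA mice (3.00%). The median log2 fold changes in these 3 comparisons were 3.01, -2.11 and 0.43. Lcn2, lipocalin 2, which binds the Mmp9 proenzyme and protects it, had 6.35, 2.66 and 6.90 CPM in the control mice, 538, 2393 and 4825 CPM in the DSS mice and 112, 197 and 102 CPM in the DSS + EA mice. It rose by a log2 fold change of 8.92 (SE 0.89, adjusted p = 0.000109), fell by 4.24 on the log2 scale with EA (SE 0.71, adjusted p = 0.00219), and DSS mouse 1 was again the lowest of its group. A2m, alpha-2-macroglobulin, a trap for proteinases of all classes, had no read in the control mice, 16.7, 8.69 and 7.49 CPM in the DSS mice and 4.26, 7.47 and 6.98 CPM in the DSS + EA mice. Against a floor of 3 counts in each control library, the group mean of A2m was higher by at least 9.61-fold with DSS and by at least 5.46-fold with DSS + EA. Between these groups the log2 fold change of A2m was -0.81 (95% interval -1.76 to 0.14, adjusted p = 0.158). The members that fell with DSS were Klk1, tissue kallikrein (log2 fold change -4.21, SE 0.84, adjusted p = 0.0035), and Bsg, basigin or EMMPRIN, an inducer of MMPs (-1.78, SE 0.19, adjusted p = 0.000149). Both rose with EA, by 3.39 (SE 0.81, adjusted p = 0.0105) and 1.40 (SE 0.19, adjusted p = 0.00083).

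Of 19 related metalloproteinases of the ADAM, ADAMTS and meprin groups and Bmp1, 15 were tested. With DSS 8 rose and 3 fell (21.5% and 19.5% of all genes tested), with EA 2 rose and 7 fell (17.2% and 18.3%), and 1 stayed above control in DSS + EA mice (3.00%). Adamts1, an enzyme that cuts proteoglycans such as versican, rose by a log2 fold change of 5.62 (SE 0.45, adjusted p = 3.7e-05) and fell by 3.50 on the log2 scale (SE 0.38, adjusted p = 0.0004). Adamts4, an aggrecanase, and Adam8, a sheddase of leukocytes, rose by 4.58 and 4.54 (adjusted p = 0.0008 and 0.000596) and fell by 2.66 and 2.81 with EA (adjusted p = 0.00707 and 0.00463). The meprins Mep1a and Mep1b, brush-border enzymes of the epithelium, fell with DSS, by 2.98 and 2.75 on the log2 scale (adjusted p = 0.0124 and 0.00397). Mep1b rose with EA (log2 fold change 2.47, adjusted p = 0.00834), and Mep1a had a log2 fold change of 2.14 (adjusted p = 0.0502). Adamdec1, made by mononuclear phagocytes and stromal cells of the gut, fell with DSS (log2 fold change -1.30, adjusted p = 0.0431) and rose with EA (1.39, adjusted p = 0.0375). Its DSS and control groups overlapped, with DSS mouse 1 (163 CPM) above control mouse 2 (148 CPM).

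The list of matrix proteins that MMPs cut held 21 genes, all tested. With DSS 19 rose (21.5% of all genes tested did), and with EA 17 fell and 1 rose (18.3% and 17.2%). In DSS + EA mice 7 stayed above control (3.00%). The median log2 fold changes in these 3 comparisons were 2.48, -1.62 and 1.00. Spp1, osteopontin, rose by a log2 fold change of 5.03 (SE 0.67, adjusted p = 0.000451), Vcan, versican, by 4.15 (SE 0.63, adjusted p = 0.000883) and Col18a1, the source of endostatin, by 3.78 (SE 0.25, adjusted p = 1.57e-05). With EA they fell by 2.72, 2.68 and 1.72 on the log2 scale (adjusted p = 0.00616, 0.00612 and 0.000752). Col18a1 stayed above the control group (log2 fold change 2.06, SE 0.23, adjusted p = 0.00261). The files hold RNA counts, and the amount or cleavage of these proteins was not measured in them.

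Of 20 cytokines and transcription factors known to induce MMP genes, 16 were tested. With DSS 13 rose, with EA 9 fell, and 2 stayed above control in DSS + EA mice (21.5%, 18.3% and 3.00% of all genes tested did). Il1a, Osm and Il11 had no read in any control mouse. In the DSS mice Il1a had 8.69, 33.5 and 53.7 CPM and Osm 4.18, 33.0 and 21.9 CPM. Il11 had 4.50, 33.9 and 1.87 CPM in these mice. The DSS group means were at least 28.0-fold, 17.2-fold and 11.8-fold above a floor of 3 counts in each control library. Single DSS mice lay closer to this floor, and the mean of Il11 rests mainly on DSS mouse 2. In the DSS + EA mice Il1a had 12.5, 2.99 and 5.71 CPM, Osm 3.65, 2.62 and 1.59 CPM and Il11 0.609, 3.36 and 2.86 CPM. Il1a and Osm fell with EA (adjusted p = 0.044 and 0.0178), and Il11 had a log2 fold change of -2.61 (adjusted p = 0.0935). The AP-1 genes of the list did not move as one with DSS. Junb (log2 fold change 1.77, SE 0.45, adjusted p = 0.0112) and Fosl2 (0.90, SE 0.28, adjusted p = 0.0263) rose, while Fos, Jun and Jund had log2 fold changes of -0.22, -0.54 and 0.01 (adjusted p = 0.487, 0.386 and 0.981). These AP-1 genes are named after their values were seen, since their site is the one searched in the promoters. With EA, Junb (log2 fold change -1.75, SE 0.45, adjusted p = 0.0143), Fosl2 (-1.49, SE 0.29, adjusted p = 0.00406) and Jund (-1.13, SE 0.39, adjusted p = 0.0458) fell.

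The genes whose profile over the 9 mice was most like that of Mmp3 or Timp1 were found by the root mean square difference of mean-centred log2 CPM. For Mmp3 these were Cxcl1 (a difference of 0.488), a neutrophil-attracting chemokine, Hp (0.560), haptoglobin, Serpina3m (0.591), Ccl2 (0.616), a monocyte-attracting chemokine, and Il1r2 (0.727), the decoy receptor of interleukin 1. For Timp1 they were Serpina3n (0.371), a serine proteinase inhibitor, Sirpb1c (0.495), Cxcl13 (0.530), a B cell-attracting chemokine, Ifitm1 (0.588) and Msr1 (0.595), a macrophage scavenger receptor. The measure is a description over 9 libraries in 3 groups, and any gene that rose with DSS and fell with EA by a like amount scores well. Cxcl1 had log2 fold changes of 10.10 (DSS) and -4.69 (EA), beside 8.57 and -3.80 for Mmp3. Serpina3n had 6.12 and -2.40, beside 6.34 and -2.75 for Timp1.

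Most tested markers of neutrophils, macrophages and fibroblasts rose with DSS and fell with EA, while the epithelial markers that were called went the other way. Of 12 neutrophil markers 9 were tested, of which 9 rose with DSS and 7 fell with EA, and the summed level of all 12 was 22.6 to 159 CPM in control mice, 4556 to 27740 CPM in DSS mice and 1194 to 1590 CPM in DSS + EA mice. Mpo, Elane, Ltf and Stfa2l1 were at 0 in every control mouse, and Mpo and Elane also in DSS mouse 1 and DSS + EA mice 1 and 2. DSS mouse 1 was the lowest of its group in Mmp8, in Mmp9 and in the neutrophil sum. It was also the lowest in Mmp3, Mmp13, Mmp12, Mmp14, Timp1 and Timp3 and in the macrophage and fibroblast sums. Per 1000 neutrophil marker reads there were 2.90, 4.96 and 7.57 Mmp8 reads in the DSS mice and 7.23, 12.5 and 4.39 in the DSS + EA mice, and 3.74, 3.08 and 5.19 Mmp9 reads in the DSS mice and 2.48, 4.38 and 1.80 in the DSS + EA mice. On this scale the DSS and DSS + EA groups overlapped for both genes. The scale rests on which markers make up the sum: Ly6g, with a log2 fold change of -1.22 for DSS + EA against DSS (adjusted p = 0.148), gave 47.6%, 5.10% and 5.07% of the marker reads in the DSS mice, 34.4%, 46.3% and 65.2% in the DSS + EA mice and 72.9% to 94.9% in the control mice. Per 1000 reads of the other 11 markers there were 5.52, 5.23 and 7.98 Mmp8 reads in the DSS mice and 11.01, 23.3 and 12.6 in the DSS + EA mice, which did not overlap, while the Mmp9 values (3.25 to 7.14 and 3.77 to 8.16) overlapped. Leaving out Ly6g was chosen after the values were seen. Most reads of the other 11 markers came from S100a8 and S100a9. Their means were 12230 and 3202 CPM in DSS mice and 487.5 and 131.8 CPM in DSS + EA mice, so that scale rests mainly on these genes. Of 10 macrophage markers 9 rose with DSS and 6 fell with EA, with sums of 519 to 543, 1631 to 3082 and 1045 to 1212 CPM. All 8 fibroblast markers rose with DSS and 6 fell with EA, with sums of 699 to 773, 3868 to 6511 and 1494 to 1586 CPM. The neutrophil, macrophage and fibroblast sums each separated the 3 groups without overlap, as did every gene of the 10 except Mmp8 and Mmp14. No macrophage or fibroblast marker was at 0 in any mouse. Of 5 endothelial markers 4 rose with DSS and 4 fell with EA. Beside these counts for neutrophil, macrophage, fibroblast and endothelial markers, 21.5% of all genes tested rose with DSS and 18.3% fell with EA. Of 10 epithelial markers 6 fell with DSS and 4 rose with EA, and of 6 smooth muscle markers 5 fell with DSS and 1 rose with EA, beside 19.5% of all genes tested that fell with DSS and 17.2% that rose with EA. The part of these cell types in the changes of the MMPs and TIMPs was not tested.

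**Figure D5:**
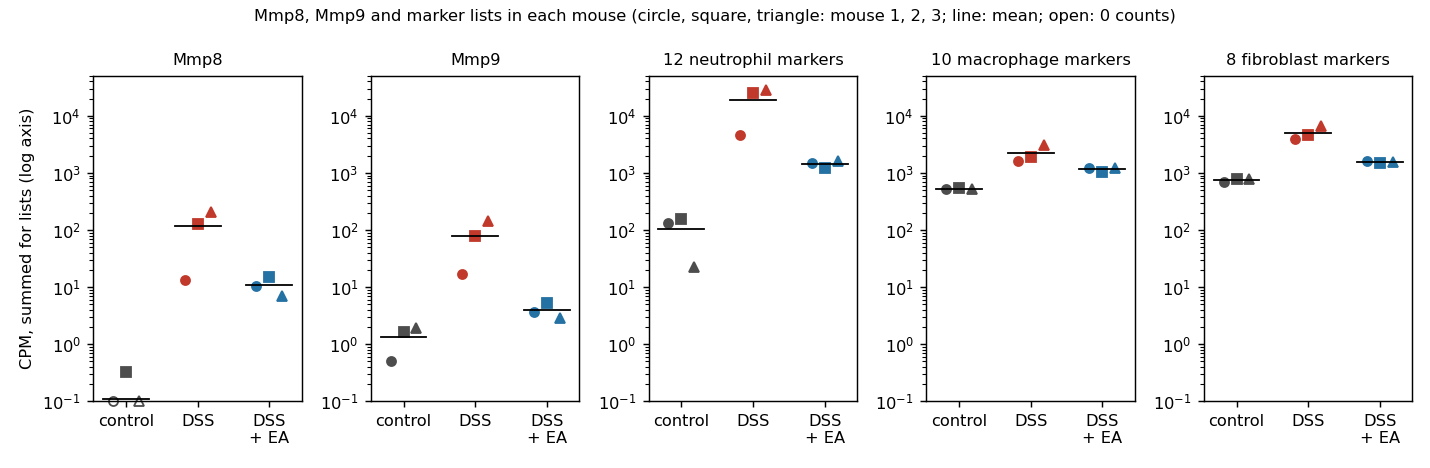
Level of Mmp8 and Mmp9 in each mouse beside the summed level of the neutrophil, macrophage and fibroblast markers, in CPM on a log axis, with the group mean as a line. In the DSS group mouse 1 (circle) is the lowest in all 5 panels, and the DSS + EA mice lie between 1194 and 1590 CPM in the neutrophil sum.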

How the data were processed

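Colon RNA of 9 mice in 3 groups was measured. The authors deposited raw read counts, as whole numbers for each gene. The submitters' processing notes name the build mm10, while the aligner, the counting tool, the annotation and the use of strand are not given in the sources used here, so reads of overlapping or near-identical genes could have been divided between them. Of 27733 lines, 14 without counts were skipped, and 27719 genes were used, of which 5620 had no count and 22036 carry Ensembl identifiers. Positions and transcript lengths come from GENCODE M21 (GRCm38, the assembly of mm10) and promoters from RefSeq (GRCm38.p6).

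The quasi-likelihood F test of edgeR 4.0.16 in R 4.3.3 was applied to the counts, with TMM factors and filterByExpr by group. All 9 libraries entered a single model with group as its term, and 12566 genes were kept. Library totals were 2627695 to 4235576 counts. P-values were adjusted by the Benjamini-Hochberg method over all genes tested, a gene was called at an adjusted p under 0.05, and the standard error is the log2 fold change over the square root of F. CPM used the totals of the genes tested and TMM factors. The functions were tested on simulated counts. Python 3.11.15, pandas 2.3.3, scipy 1.17.1 and matplotlib 3.10.9 were used for tables, exact tests and figures.

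The members and gene lists were chosen with earlier results of these data known. Named were the 10 members, every other Mmp or Timp gene tested, from each further list the 3 genes with the largest called change in each direction with DSS, and the 5 genes most like Mmp3 and Timp1. One gene that this rule names is not reported here. Alternatives were DESeq2 1.42.0, RLE factors or library totals, no filter on low counts or a minimum mean of 20, a model of the compared groups alone, the study's thresholds for differentially expressed genes on the edgeR values, a prior count of 2, the replicate number as a block, and each mouse left out. Same-numbered mice are different animals. One alternative, without DSS + EA mice 2 and 3, was added after the data were seen.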

Additional observations from a re-analysis of the deposited data

How the results depend on the processing

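Depth limited the control values of Mmp8 and Mmp12, with 1 and 3 reads in the group, and these set the size of their fold changes. The 10 members higher with DSS and the 10 lower with EA were found in every fit set out at the start and lost members only under the study's thresholds for differentially expressed genes, applied to the edgeR values, which gave 9 higher with DSS and 6 lower with EA. Without DSS + EA mice 2 and 3, an alternative chosen after seeing the data, 4 were lower with EA and 4 above control in DSS + EA mice, with fewer samples in the fit. DSS + EA against control gave 5 in place of 6 with library totals, with a mean of at least 20 counts and without several single mice, in each case through Mmp8. Over 30 log2 fold changes and all alternatives, 0 reversed, 23 single values lost their call and 545 kept it or stayed uncalled. The difference between DSS + EA and DSS mice in the log2 ratio of Mmp12 to Timp1 turned from -0.05 to 0.06 with 1 added to each count. With each mouse left out, this difference was -0.37 to 0.42 for Mmp12, -0.04 to 1.10 for Mmp10, -0.92 to 0.35 for Mmp8 and -0.51 to 0.38 for Mmp13, and the cause was not tested.

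Same-numbered mice of different groups did not deviate together (correlations over genes of -0.16 to 0.105), so the numbers were not taken as pairs. With the replicate number as a block, the counts were 10 higher with DSS, 10 lower with EA, and 6 above control in DSS + EA mice.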
